A study of Mus musculus with 2 samples.

Results

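Lin28a, Lin28b, Trim71, Dgcr8, Dicer1 and Drosha are 6 genes around the maturation of microRNAs, and they were followed here in mouse embryonic stem (ES) cells that overexpress Klf5. All probe sets that carry only the symbol of one of these genes were taken, which gave 14 of 34945 such probe sets and 6 of 18193 genes. The samples were 2 clones of Klf5-overexpressing E14 ES cells, which were undifferentiated per the labels and kept in ES medium with 15% FBS and LIF (leukaemia inhibitory factor, which sustains self-renewal). RNA of each clone was hybridised to 1 Affymetrix mouse array. Both clones form 1 group, and the labels do not give the promoter that drives Klf5. Wild-type ES clones, with which the study compared these, were not analysed here, so no value below is an effect of Klf5.

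A microRNA is cut from its primary transcript by the Microprocessor, in which the nuclease Drosha works with the RNA-binding protein Dgcr8, and the exported hairpin is then cut by Dicer1 to the mature strand that an Argonaute protein carries. Lin28a and Lin28b are paralogous RNA-binding proteins that hold back the let-7 family by binding its precursors. On a let-7 hairpin bound by Lin28a, terminal uridylyltransferases add a mark for decay by Dis3l2. Trim71 is an RNA-binding ubiquitin ligase of early embryonic cells and ES cells, and its mRNA is a classic let-7 target. In ES cells let-7 is scarce and microRNAs of the miR-290 and miR-302 clusters are abundant.

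The mature let-7 strands below show what this machinery makes or withholds, with the seed, bases 2 to 8, in capitals. In the RefSeq table of microRNAs (GRCm38.p6) 11 of 1679 mature names share the let-7 seed GAGGUAG, and 5 share the seed AAGUGCU of miR-294 and miR-302b. The array did not measure these small RNAs.
let-7a-5p: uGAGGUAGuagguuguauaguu
let-7b-5p: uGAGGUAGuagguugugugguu
let-7g-5p: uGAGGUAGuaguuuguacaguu
miR-98-5p: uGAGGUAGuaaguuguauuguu
miR-294-3p: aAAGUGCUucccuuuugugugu
miR-302b-3p: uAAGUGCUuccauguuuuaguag

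The hairpins are shown because Lin28 proteins recognise them before Dicer1 cuts. Capitals mark the letters GGAG in the terminal loop, the stretch between the mature arms, where the zinc knuckles of Lin28 are known to bind. These letters (searched on the RNA strand, the copy nearest the 3p arm marked) were in the loop of 9 of 12 let-7 family hairpins and of 44 of 633 other hairpins with both arms listed (6.95%). Mir98, Mirlet7b and Mirlet7c-2 were those without them.
let-7a-1 hairpin (chr13:48538179-48538272, minus strand): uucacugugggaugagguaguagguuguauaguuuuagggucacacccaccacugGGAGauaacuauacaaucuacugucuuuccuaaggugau
let-7g hairpin (chr9:106178840-106178927, plus strand): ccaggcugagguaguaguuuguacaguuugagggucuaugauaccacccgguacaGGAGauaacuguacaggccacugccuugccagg
let-7b hairpin (chr15:85707319-85707403, plus strand): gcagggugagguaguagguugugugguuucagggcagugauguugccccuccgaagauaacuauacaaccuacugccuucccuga

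A probe set was counted as above background where its log2 signal passed a level of 6.77 in clone 1 and 6.34 in clone 2. The level is the 95th percentile of an array over 50 genes of adult organs such as milk proteins and digestive enzymes, read by 80 probe sets. Of the 14 probe sets, 10 were above background in both clones, against 38.4% of all named probe sets. These belonged to 5 of the 6 genes, against 47.0% of all genes by their brightest probe set. Of the rest, 1 probe set of Dgcr8 passed in clone 2 alone, and 3 passed in neither clone. A difference is the log2 signal of clone 2 less that of clone 1. With 1 array per clone there is no test; a 2-fold difference whose brighter clone passed the background level stands in for one. None of the 11 probe sets that passed the level somewhere met it (0 of 11, against 0.693% of all such probe sets), and the widest difference was 0.60. Signals of different genes were not ranked against each other, since the affinities of probe sets differ. Within a gene, the probe set with the highest mean signal is called the brightest. It stands for the gene where 1 value per gene is used.

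**Figure D1:**
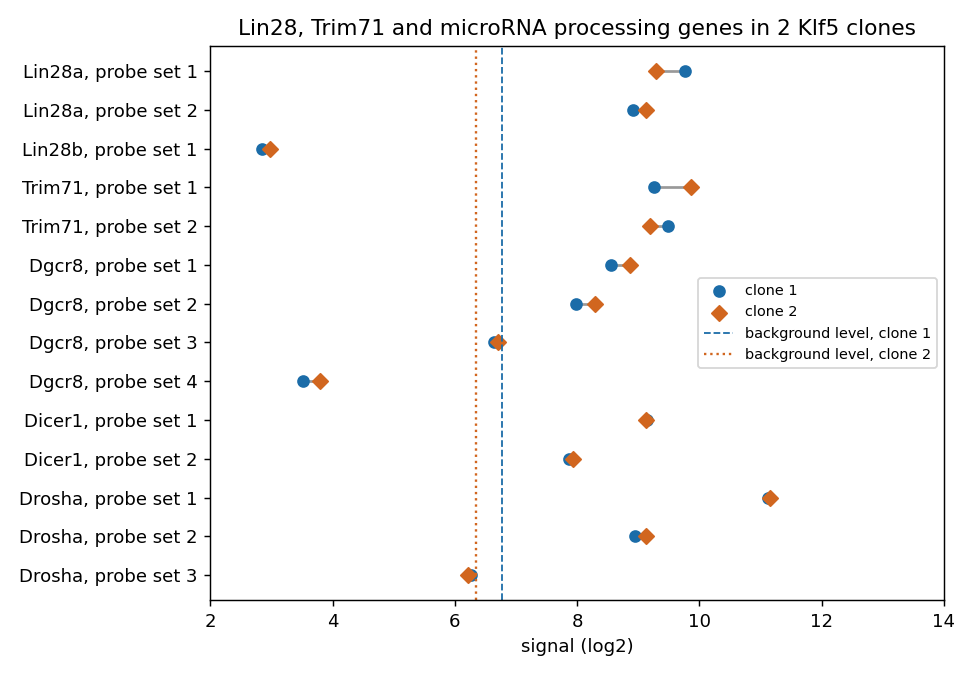
Signal (log2) of each of the 14 probe sets in clone 1 (circles) and clone 2 (diamonds), with the background level of each clone as a vertical line. The Lin28b probe set and the fourth of Dgcr8 lie far left of both lines, the third of Drosha just left of them, and the third of Dgcr8 between them.

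Lin28a was the Lin28 paralogue that read above background. Its brighter probe set read 9.76 in clone 1 and 9.29 in clone 2 (9.53 ± 0.33, SD, n = 2), so clone 2 was 1.39-fold lower. The other probe set read 8.92 and 9.13, 1.16-fold higher in clone 2. The clones were thus ordered differently by the 2 probe sets of this gene. Among all named probe sets that passed the level, 2531 had a mean signal within 0.5 of the brighter one, and 203 of these (8.02%) differed between the clones by as much or more; for the other it was 1255 of 2977 (42.2%). Lin28b was read by 1 probe set at 2.85 and 2.97, not above background in either clone. Because Lin28b rests on a single probe set, a low signal and a poor probe set cannot be told apart.

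The DNA around the listed start of both paralogues is shown because Lin28a read above background and the 1 probe set of Lin28b did not. Whether these sequences bear on the signals was not tested. Each window runs from 250 bases before the start to 50 after it (RefSeq, GRCm38.p6), and capitals mark matches to CCNCNCCC on either strand (GGGNGNGG when read on the strand shown), a GC-rich pattern of the kind that Klf and Sp factors bind. It was matched 4 times in the Lin28a window, with overlaps, and 0 times in that of Lin28b. Counted in the same way, Trim71 had 7 matches, Dicer1 had 3, and Dgcr8 and Drosha had 1 each. All 6 genes had a window in the table, and 5 of them held at least 1 match, against 49.5% of 32851 windows. The Lin28b window was 39.0% G or C and the Lin28a window 63.3%, with a median of 52.7% over all windows; 8.92% of windows had a share as low as that of Lin28b. Dgcr8 (74.3%) and Dicer1 (77.3%) had the windows richest in G and C among the 6 genes. All 5 windows with a match were at least 59.3% G or C.
Lin28a start region (chr4:134018767-134019066, minus strand): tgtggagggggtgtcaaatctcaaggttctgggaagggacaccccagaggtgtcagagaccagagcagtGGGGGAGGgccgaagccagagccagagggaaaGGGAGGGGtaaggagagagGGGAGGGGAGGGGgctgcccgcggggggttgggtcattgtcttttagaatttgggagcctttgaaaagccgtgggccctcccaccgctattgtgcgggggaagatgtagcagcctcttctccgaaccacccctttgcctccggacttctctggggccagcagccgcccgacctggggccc
Lin28b start region (chr10:45470152-45470451, minus strand): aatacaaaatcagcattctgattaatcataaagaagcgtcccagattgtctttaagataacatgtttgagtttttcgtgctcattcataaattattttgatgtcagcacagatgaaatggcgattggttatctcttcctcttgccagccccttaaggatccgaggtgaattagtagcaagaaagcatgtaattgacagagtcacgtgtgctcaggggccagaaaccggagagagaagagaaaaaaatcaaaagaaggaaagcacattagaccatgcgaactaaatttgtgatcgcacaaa

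Trim71 was above background in both clones by both of its probe sets, and these also ordered the clones differently. The brighter read 9.26 in clone 1 and 9.86 in clone 2 (9.56 ± 0.42, SD, n = 2), with clone 2 higher by 1.52-fold, and 84 of 2483 probe sets of like signal (3.38%) differed by as much. The other read 9.49 and 9.19, 1.23-fold higher in clone 1, with 650 of 2745 (23.7%) differing by as much. Trim71 thus had the widest difference of the 6 genes and no common direction.

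Disagreement of this kind was common on these arrays. Of 3237 genes with at least 2 probe sets above background in both clones, 1525 (47.1%) had probe sets with opposite signs, and 3 of 5 among the genes described here, the third being Dicer1 with differences close to 0. The largest minus the smallest difference within a gene was 0.90 for Trim71 and 0.68 for Lin28a, with a median of 0.27 over the 3237 genes. A spread as wide as that of Trim71 was seen in 109 genes (3.37%), and one as wide as that of Lin28a in 277 (8.56%). More probe sets per gene allow a wider spread and more chances of opposite signs. The 5 genes had 2 such probe sets each, and the 3237 genes were not matched to them for that number. It was 0.01 for Dgcr8, 0.09 for Dicer1 and 0.14 for Drosha. Which transcripts the probe sets of Lin28a and Trim71 bind was not tested.

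**Figure D2:**
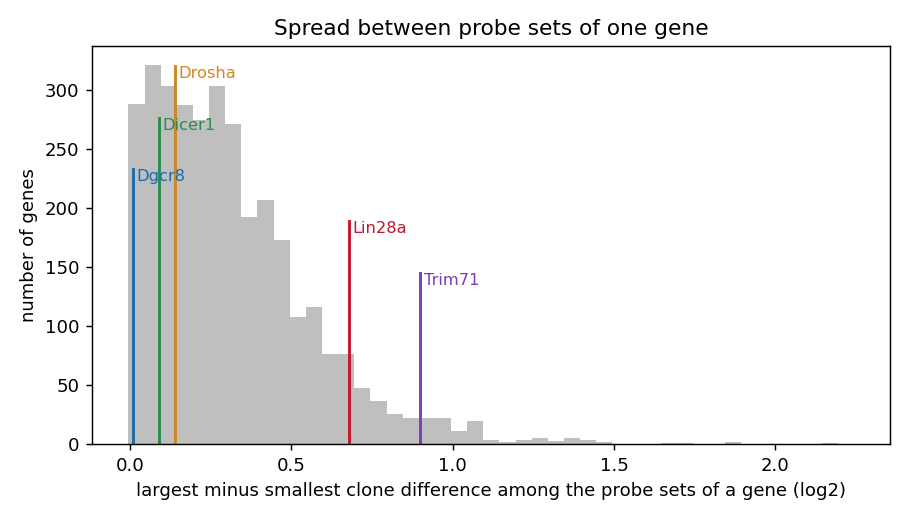
Number of genes by the largest minus the smallest clone difference (log2) among their probe sets, over 3237 genes with at least 2 probe sets above background in both clones. Vertical lines give Dgcr8 (0.01), Dicer1 (0.09), Drosha (0.14), Lin28a (0.68) and Trim71 (0.90), the last 2 to the right of most genes.

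The Microprocessor genes were above background in both clones. Drosha, its nuclease, read 11.12 in clone 1 and 11.16 in clone 2 by the brightest probe set (11.14 ± 0.03, SD, n = 2), and 8.94 and 9.12 by another. The clones lay within 0.18 of each other in both, and 86.3% and 48.9% of probe sets of like signal differed by as much. The third Drosha probe set read 6.27 and 6.21, not above background. The brightest Drosha probe set is marked as shared between transcripts, and the others are not.

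Dgcr8 was somewhat higher in clone 2. Its brightest probe set read 8.56 in clone 1 and 8.86 in clone 2 (8.71 ± 0.21, SD, n = 2), a 1.23-fold difference, and the next 7.98 and 8.29 (1.24-fold). These 2 were designed from the same sequence accession and are not independent readings. Differences of that size were found in 26.8% and 28.8% of probe sets of like signal. The third read 6.64 and 6.71, above background in clone 2 alone, through the lower level there, and no fold is given. The fourth read 3.52 and 3.79, not above background. The Microprocessor is known to cut a hairpin within the Dgcr8 transcript itself, which holds down Dgcr8. The table of microRNAs places mir-1306 within the Dgcr8 gene span, and its 3p strand is shown for that reason.
miR-1306-3p (chr16:18284248-18284268, minus strand): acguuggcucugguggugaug

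Dicer1, which cuts the exported hairpin, had clones that lay close in the values as deposited. It read 9.15 in clone 1 and 9.13 in clone 2 (9.14 ± 0.01, SD, n = 2), and 7.86 and 7.93 by its other probe set. Of probe sets of like signal, 95.2% and 82.6% differed by as much or more.

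**Figure D3:**
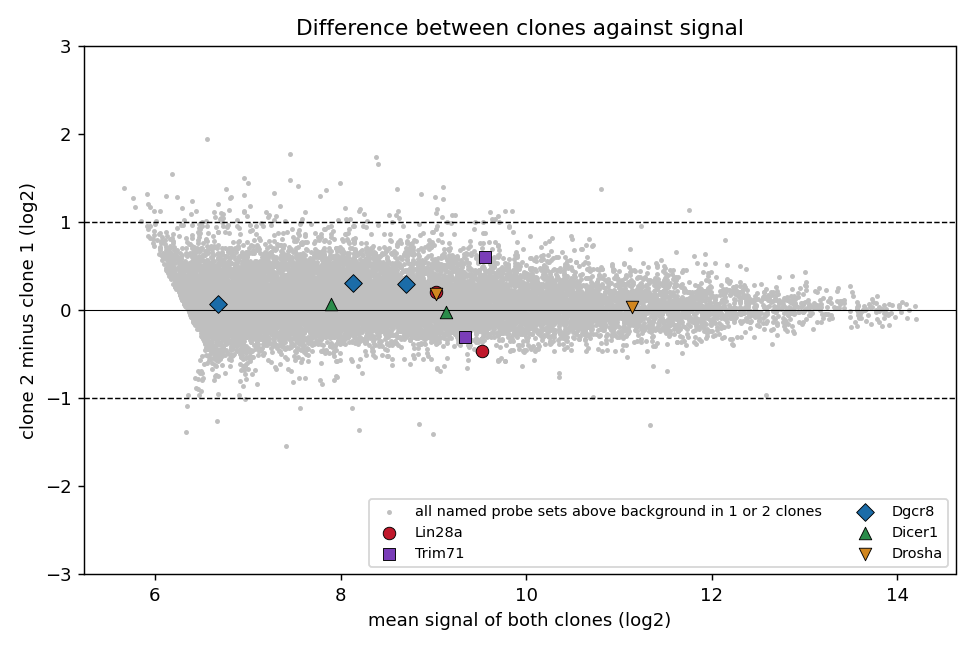
Clone 2 minus clone 1 (log2) against the mean signal of both clones (log2) for all named probe sets above background in 1 or 2 clones (grey), with the 11 such probe sets of Lin28a, Trim71, Dgcr8, Dicer1 and Drosha in colour; dashed lines mark 2-fold. All 11 lie between the dashed lines, with Trim71 at 0.60 and Lin28a at -0.47 the outermost.

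Across the 10 probe sets above background in both clones, 7 were higher in clone 2, against 62.0% of all such probe sets, and the median absolute difference was 0.26, against 0.17. By the brightest probe set the median difference of the 5 genes was 0.04, against 0.09 over 9495 genes above background. Directions near 0 depended on the scale of the arrays. Under median, quantile or loess normalization Dgcr8 stayed higher in clone 2 in both of its brighter probe sets (0.17 to 0.40). Each Lin28a probe set (-0.57 to -0.38, and 0.10 to 0.30) and each Trim71 probe set (0.51 to 0.69, and -0.41 to -0.21) also kept its direction. The brighter Dicer1 probe set ran from -0.13 to 0.07 and the brightest Drosha one from -0.01 to 0.13, changing sign.

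The other genes of the pathway were taken by role, and of 94 measured, 78 were above background in both clones, where 47.0% of all genes were. Both counts are by the brightest probe set, so a gene with more probe sets has more chances to pass. The number of probe sets was not matched in any comparison with the 47.0%. These 94 are 53 genes of the machinery, of which 47 passed, and 41 target genes and host transcripts, of which 31 passed. By role, the 47 were 5 of 7 other genes of let-7 control, 6 of 6 Microprocessor partners, 2 of 2 export factors, 3 of 3 Dicer partners, 2 of 4 Argonautes, 3 of 3 GW182 scaffolds, 7 of 7 RISC helpers, 12 of 13 deadenylation and decapping genes and 7 of 8 turnover genes. Of 81 that passed in 1 or both clones, 57 (70.4%) were higher in clone 2, against 64.1% of all genes. With each array centred on its median it was 64 (79.0%), against 78.0%, and with quantile normalization 46 (56.8%), against 48.6%, so the distance to all genes moved with the scale. By the brightest probe set 1 gene differed 2-fold, against 0.442% of all genes. It was Msi1, an RNA-binding protein that can act with Lin28, at 6.46 in clone 1 and 7.53 in clone 2. Msi1 was not above background in clone 1, and the difference is at least 1.70-fold when clone 1 is raised to its background level. The other Msi1 probe sets, above background in neither clone, were lower in clone 2 (5.82 and 5.18, and 3.63 and 3.60). Of 28 machinery genes with at least 2 probe sets above background in both clones, 15 (53.6%) had probe sets of opposite sign, against 47.1% of all such genes. Opposite signs are likelier with more probe sets per gene, and these shares were not matched for that number. Values below are those of the brightest probe set. Where others of a named gene, above background in both clones, went the other way, this is said.

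Among the partners of Lin28 in let-7 control, the uridylyltransferases Tut4 (9.64 and 9.66) and Tut7 (8.55 and 8.61) were within 0.06 between clones. Dis3l2, the exonuclease that degrades uridylated pre-let-7, read 6.02 and 5.73, not above background. Of the factors that bind let-7 precursors, Khsrp was 8.91 and 8.66, and Hnrnpa1 10.57 and 10.87. Both had another probe set of the opposite sign, with Khsrp at 6.96 and 7.22 and Hnrnpa1 at 10.82 and 10.55. The choice of Tut4, Tut7 and Dis3l2 was made with their values known, outside the rule for naming.

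Around Drosha, Ilf2 (10.12 and 10.60), Smad4 (10.70 and 11.17) and the helicase Ddx5 (12.24 in clone 2 and 0.24 above clone 1) had the widest differences by the brightest probe set. Smad4 had no common direction: its other probe sets read 10.30 and 10.19, and 10.06 and 9.48, the last 1.49-fold lower in clone 2. The other probe set of Ilf2 read 8.52 and 8.44. The export receptor Xpo5 (8.84 and 8.93) and its GTPase Ran (13.53 and 13.45) were within 0.09 between clones by the brightest probe set. The Dicer1 partners Tarbp2 (8.83 and 9.22) and Prkra (7.84 and 8.05), and the editing enzyme Adar (8.26 and 8.53), each had a brightest probe set that was higher in clone 2, as deposited and under the 3 normalizations. Another Adar probe set read 7.97 and 7.93.

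Of the Argonautes, Ago2, which alone of the family cuts its target, read 9.21 and 9.98 by the brightest probe set and 9.43 and 8.80 by the next. Its 4 probe sets had no common direction. Ago1 was 8.09 and 8.49, and Ago3 and Ago4 were not above background. The scaffolds that join Argonautes to deadenylases were Tnrc6a (9.71 and 9.84), Tnrc6b (7.57 and 8.14) and Tnrc6c (7.83 and 8.29), each with a higher brightest probe set in clone 2, as deposited and under the 3 normalizations. The other Tnrc6b probe set above background went the other way (7.57 and 7.34). The median of the 3 genes, 0.46, stands beside 0.09 for all genes.

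Downstream of these, the repressor helicase Ddx6 was 8.16 and 8.66, Fmr1 10.21 and 10.53, and Ddx20 9.41 and 9.73. The other Fmr1 probe sets above background were lower in clone 2 (7.36 and 7.15, and 6.86 and 6.48). The widest differences among deadenylation genes were those of Cnot6l (8.23 in clone 1 and 1.71-fold higher in clone 2), a catalytic subunit of the CCR4-NOT complex, Cnot3 (9.81 and 10.41) and Pan3 (7.62 and 8.11). Turnover genes had a median of -0.02, with Tsnax at 9.43 and 9.22, Xrn2 at 10.70 and 10.51 and Pnpt1 at 9.60 and 9.70. That median was 0.07 with each array centred on its median, -0.11 with quantile and -0.09 with loess normalization.

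**Figure D4:**
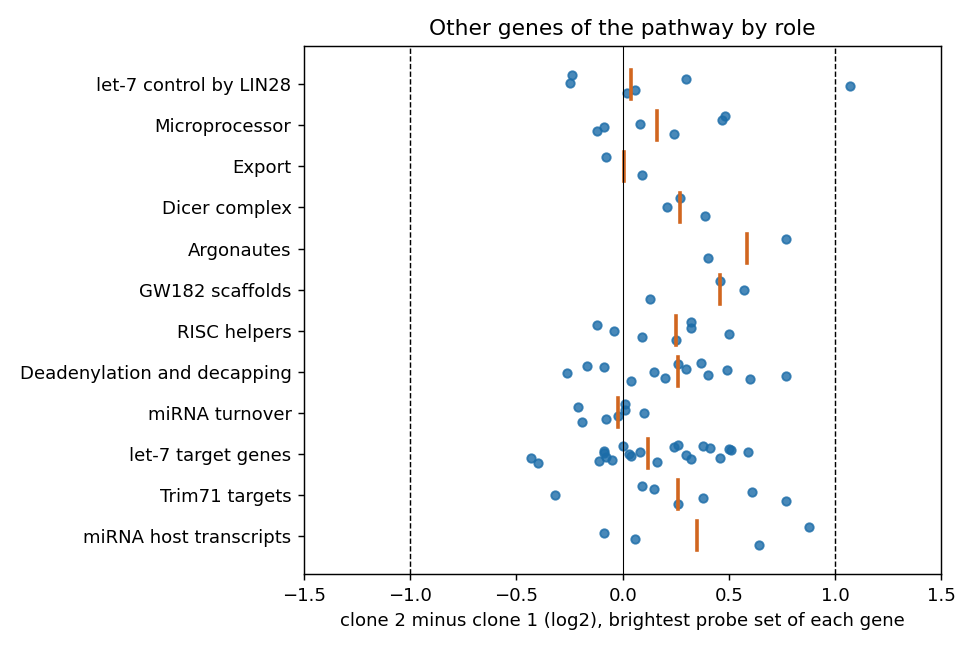
Clone 2 minus clone 1 (log2) by the brightest probe set for the other pathway genes that passed the level in 1 or both clones, 1 point per gene, by role; orange bars are medians and dashed lines mark 2-fold. Msi1, in the top row, is the point beyond 2-fold, and Ago2 appears under Argonautes and under Trim71 targets.

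Genes known as let-7 targets were largely above background, which describes a level in these cells and measures no let-7 activity. Of 25 measured, besides Lin28a, Lin28b and Trim71 themselves, 21 passed in both clones, against 47.0% of all genes. Plagl2 (5.97 and 6.38) passed in clone 2 alone, through the lower level there, and Ccnd2, Cdk6 and Thbs1 in neither. The widest differences were those of the cell cycle factor E2f5 (8.88 and 9.47), the receptor Tgfbr1 (8.37 and 8.88) and the nuclear receptor Nr6a1 (8.86 and 9.36). For E2f5, 1 of its 3 probe sets went the other way (8.87 and 8.25). Chosen after their values were seen, the oncofetal targets Hmga2 (10.22 and 9.82), Igf2bp1 (10.57 and 10.73), Igf2bp3 (9.03 and 8.92) and Mycn (10.71 and 10.66) were above background in both clones. Hmga2 went the other way by its other probe sets above background (9.41 and 9.85, and 7.66 and 7.78), and Igf2bp1 by another of its own (9.25 and 9.02). For Igf2bp3 most of those above background in both clones did so (8.54 and 8.59, 7.85 and 8.29, and 7.19 and 7.30). The list's median was 0.12, with 14 genes higher in clone 2 and 7 lower, and 12 and 10 under quantile normalization.

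The cells were checked against marker genes. Klf5 read 11.61 and 12.25 by the brightest of its 3 probe sets. The next read 6.97 and 7.26, above background in both clones, and the last 4.81 and 4.77, above it in neither. Without wild-type values these signals do not show overexpression. All 10 ES cell markers were above background in both clones, between 10.12 and 14.15 in clone 1 and between 10.49 and 14.06 in clone 2. Among 10 markers of fibroblast feeders, Thy1 and Pdgfrb passed in both clones (2 genes) and Acta2 in clone 2 alone, while the collagens, Lum, Dcn and Postn passed in neither. Acta2 (5.99 and 6.35) passed through the lower level of clone 2. Of 6 neural markers 1 passed in both, and none of the mesoderm, primitive endoderm or trophoblast markers did. Mesp1 passed in clone 1 alone (7.30 and 6.04), and Tubb3 and Sox17 in clone 2 alone. Their part in the clone differences above was not tested.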

How the data were processed

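The authors deposited signals of 45037 probe sets on 2 arrays, which are read here as log2 values. The submitters' processing notes name Transcriptome Analysis Console; the sources used here do not state the background correction, summarisation, normalization or log base. The values ran from 2.21 to 14.38, which led to base 2, and every fold rests on that. The column medians were 5.27 and 5.18.

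Genes were named from probe sets with 1 symbol in the platform annotation (34945; 932 had several and 9160 are unnamed here). Signals were used as deposited, in Python 3.11.15 with pandas 2.3.3. Of 56 background genes listed, 50 were measured. The number of arrays limits the precision, and an SD covers the spread between 2 clones only. No p-value was computed. The 6 genes and all lists were chosen with earlier results of these data known. Named were all probe sets of the 6 genes and, per role, the genes that differed 2-fold and the 3 with the widest differences. Genes of a like pattern were not named, since 2 arrays give 1 difference per gene. Sequences are from RefSeq tables (GRCm38.p6), not from the arrays. The alternatives were 3 normalizations (loess span 0.3), other background levels, other choices of probe set and each clone alone.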

Additional observations from a re-analysis of the deposited data

How the results depend on the processing

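With the background level at the 90th or the 99th percentile, taken from olfactory and vomeronasal receptor probe sets, or without Mylpf (a background gene at 10.53 and 10.48; chosen after the data were seen), 5 of the 6 genes stayed above background in both clones and 0 probe sets differed 2-fold. The count of 0 also held under the 3 normalizations and with no background filter. No background level or filter could change it, since the widest difference as deposited was 0.60. With each clone alone 5 genes passed. The other pathway genes above background in both clones numbered 68 to 90 over these background levels, against 78. With 1 clone left out, 78 to 81 passed in the clone that remained. A count in 1 clone cannot be lower than the count in both, so the counts with 1 clone could only hold or rise. The share of all genes that passed was not computed for these alternatives, so the counts above cannot be set against it. The median difference of the genes, 0.04, lay between -0.01 and 0.18 over the alternatives and between 0.01 and 0.17 with each gene left out in turn, a range that includes 0. With the mean over the probe sets of a gene, Lin28a was -0.13 and Trim71 0.15, since opposite directions cancel. The Drosha difference was 0.18 without probe sets marked as shared between transcripts. No paired analysis was possible because there is 1 group of 2 clones. The data hold no probe-level signal, so how far a dim probe set such as that of Lin28b lies above its own background could not be measured.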

Other observations

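Transcripts known to be bound or repressed by Trim71 were above background in both clones for 7 of 7 genes, against 47.0% of all genes, with a median difference of 0.26 beside 0.09 over all genes. Hoxa5 passed by 1 probe set (7.04 and 6.72), while its other read 3.47 and 3.57. In clone 1 Hoxa5, Egr1 and Mbnl1 lay close to the level, and below the 7.88 that the 99th percentile gives there. Ago2 is described above. Egr1, an immediate early factor, was 7.12 and 7.73, and the splicing regulator Mbnl1 7.07 and 7.45. Cdkn1a, the cell cycle inhibitor p21, read 10.07 and 10.33 by its brighter probe set and 7.51 and 9.25 by the other, 3.34-fold higher in clone 2. The latter was chosen after its values were seen. It is the 1 probe set that differed 2-fold among the 14 of this list, which include some not above background. Of all named probe sets above background in 1 or 2 clones, 0.693% did.

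Of 10 measured host transcripts of microRNAs, 4 passed the background level in both clones and 6 passed in neither, a share near the 47.0% of all genes that passed in both. Rian was 8.45 and 9.33 and Mirg 7.24 and 7.88, both non-coding transcripts of the imprinted cluster on chromosome 12. Mest, the host of miR-335, was 9.89 and 9.80. A second Mirg probe set (6.19 and 7.22) was at least 1.37-fold higher in clone 2, where alone it was above background. Among turnover genes, a second probe set of the poly(A) polymerase Tent2 (6.23 and 7.37) was at least 1.52-fold higher in clone 2 in the same way, while its brightest read 10.17 and 10.09.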
